A study of Rattus norvegicus with 7 samples.

Results

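The 10 genes described here form the core of the mammalian circadian clock and its best known output: Arntl, Clock, Per1, Per2, Per3, Cry1, Cry2, Nr1d1, Nr1d2 and Dbp. They were chosen by symbol, and all 10 were found in the hippocampus table (16223 symbols), in the hypothalamus table (16183 symbols) and among the 15805 symbols common to both. All 10 also reached a mean of at least 1 FPKM (fragments scaled by transcript length and by library size) in a tissue, as did 10736 of the common symbols. Where a symbol had several loci in a table, the locus with the highest mean was used.

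The clock is a loop of transcription and feedback that runs with a period of about a day. CLOCK and BMAL1, the product of Arntl, bind E-box sequences as a pair and switch on the Per and Cry genes, whose proteins return to the nucleus and inhibit that pair. In an interlocked loop, the same pair switches on Nr1d1 and Nr1d2, which encode the nuclear receptors REV-ERB alpha and beta, and these repress Arntl. Dbp encodes a transcription factor that is driven by the same E-boxes and passes the rhythm on to genes with D-box sequences. The suprachiasmatic nucleus of the hypothalamus holds the central clock, and other brain regions, the hippocampus included, carry clocks of their own.

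Levels were measured by RNA sequencing in 7 libraries, 4 of hippocampus and 3 of hypothalamus. Every library came from male Sprague Dawley rats that were 2 months old when they were assigned to a diet with the omega-3 fatty acid docosahexaenoic acid (DHA), which they received for 6 weeks. Chow-fed rats are not analysed here, and nothing below measures what the diet does. The dose of DHA and the time of day of dissection are not given in the sources used here, nor is it stated whether libraries with the same replicate number came from 1 rat. Replicates are as the labels number them, and the spread between them may be in part technical.

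Defining genes of each tissue were in place. Of 6 hippocampal markers, the 5 that reached 1 FPKM in a tissue were at least 2-fold higher in hippocampus (Spink8 stayed below 1 FPKM in the mean of both tissues), and all 7 hypothalamic markers were at least 2-fold higher in hypothalamus. Replicate 1 was examined apart in both tissues. Without it, the median SD of log2(FPKM + 1) between libraries, over all symbols of at least 1 FPKM, went from 0.227 to 0.187 in hippocampus. In hypothalamus it went from 0.246 to 0.132. A median SD tends to be smaller over fewer libraries, and it was not recomputed without any other replicate. These drops thus do not show that replicate 1 in particular stands apart. Choroid plexus genes also differed between hippocampus libraries, with a summed level from 2067 to 5949 FPKM except in replicate 2, which read 34.6 FPKM. Values without replicate 1 are given beside the results that it moves most.

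Among the 10 genes, Dbp was the most abundant in both tissues and Clock the least. The hippocampal means ran from 87.7 ± 37.4 FPKM for Dbp to 3.47 ± 0.525 FPKM for Clock (SD, n = 4). The hypothalamic means ran from 104 ± 30.6 FPKM to 1.85 ± 0.380 FPKM (SD, n = 3). The Dbp mean lay at percentile 92.8 of all symbols of at least 1 FPKM in hippocampus and at percentile 93.0 in hypothalamus, while the Clock mean lay at percentiles 17.5 and 6.58. FPKM is scaled by transcript length, so these levels can be set against each other within a tissue.

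In hippocampus the order from high to low was Dbp, Cry2, Nr1d1, Nr1d2, Per1, Arntl, Per2, Per3, Cry1 and Clock. Neighbours in this order whose ranges over libraries overlapped were Nr1d1 and Nr1d2, Per1 and Arntl, Per2 and Per3, and Cry1 and Clock. Within libraries, Per2 was above Per3 in 4 of 4, Per1 above Arntl in 3, Nr1d1 above Nr1d2 in 2 and Cry1 above Clock in 2. A further hippocampal Nr1d2 locus is not counted here. With loci summed, the log2 ratio of Nr1d1 to Nr1d2 ran from -1.33 to 0.38, so the order of this pair depends on which loci are counted. In hypothalamus the order was Dbp, Nr1d1, Cry2, Nr1d2, Per3, Per1, Cry1, Arntl, Per2 and Clock. There, Cry2 overlapped with Nr1d2, and the run Per1, Cry1, Arntl and Per2 overlapped from each gene to the next. Per3 and Cry1, at ranks 8 and 9 in hippocampus, stood at ranks 5 and 7 in hypothalamus.

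**Figure D1:**
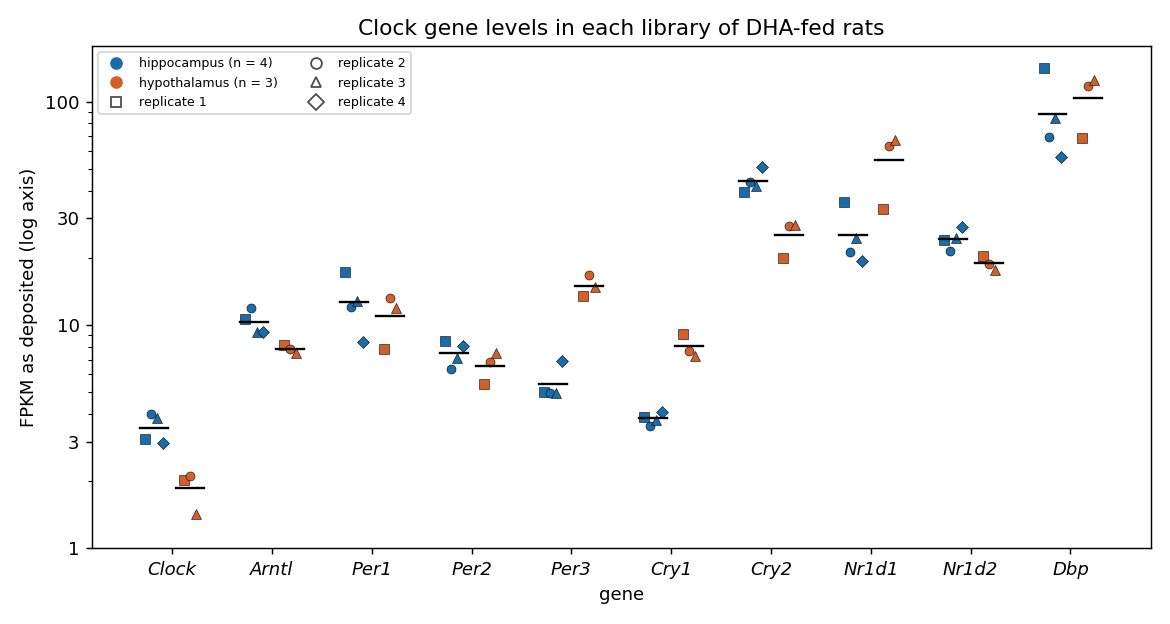
FPKM as deposited of the 10 clock genes (log axis) in each of the 4 hippocampus and 3 hypothalamus libraries of DHA-fed rats. Points are libraries, with the shape giving the replicate number, and black lines are means. The Per3 and Cry1 points of the tissues are separate with hypothalamus on top, and the Cry2 and Clock points are separate with hippocampus on top.

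Start regions of members were read from the RefSeq promoter table of the rat assembly GRCr8, which holds 300 bases (250 before and 50 after a start) and has 11 entries for 9 of the 10 genes (Clock and Nr1d1 have 2 each). They were searched on both strands for the E-box CACGTG, its variant CACGTT, the D-box as TTATGTAA or TTACGTAA, the nuclear receptor half-site AGGTCA and the cyclic AMP response element TGACGTCA. The E-box occurred in 1 of the 11 start regions (the first of Nr1d1) and in 6.42% of all 33469 start regions, and the CACGTT variant in 3 (Per2, Cry2 and the second of Nr1d1) and in 4.83%. The D-box occurred in 1 (Per2) and in 1.01%, the half-site in 2 (Arntl and Nr1d2) and in 16.2%, and the cyclic AMP response element in none of the 11 and in 1.83%. These are matches of letters in a short window and not measured binding. Those of Per2, Nr1d1 and Arntl are shown as examples that between them hold each kind of motif found, and that of Dbp because it has the highest level and none of the 5 motifs. Each is in lower case, 5′ to 3′ along the gene, with matches in capitals.
Per2 (minus strand, chr9:99496944-99497243, D-box and E-box variant): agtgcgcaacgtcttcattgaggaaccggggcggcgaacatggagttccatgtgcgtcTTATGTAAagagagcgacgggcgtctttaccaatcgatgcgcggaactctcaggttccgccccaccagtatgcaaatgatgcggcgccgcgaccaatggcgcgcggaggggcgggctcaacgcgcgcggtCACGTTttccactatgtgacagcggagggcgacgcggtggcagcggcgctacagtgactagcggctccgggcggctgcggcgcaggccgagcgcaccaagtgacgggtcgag
Nr1d1 (minus strand, chr10:84229405-84229704, an entry inside the annotated gene, E-box): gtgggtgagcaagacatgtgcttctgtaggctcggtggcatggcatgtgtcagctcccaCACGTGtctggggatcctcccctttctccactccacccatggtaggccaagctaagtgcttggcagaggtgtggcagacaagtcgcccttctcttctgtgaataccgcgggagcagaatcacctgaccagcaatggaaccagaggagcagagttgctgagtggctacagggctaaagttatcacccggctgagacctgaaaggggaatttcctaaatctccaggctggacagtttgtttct
Arntl (plus strand, chr1:176766078-176766377, half-site): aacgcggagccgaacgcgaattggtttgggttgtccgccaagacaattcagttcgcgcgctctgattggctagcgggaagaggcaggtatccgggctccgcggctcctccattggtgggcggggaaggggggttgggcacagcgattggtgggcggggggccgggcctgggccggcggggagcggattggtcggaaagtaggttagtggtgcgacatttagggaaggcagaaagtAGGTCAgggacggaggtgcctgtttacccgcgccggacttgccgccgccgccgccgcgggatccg
Dbp (plus strand, chr1:105312006-105312305, no match): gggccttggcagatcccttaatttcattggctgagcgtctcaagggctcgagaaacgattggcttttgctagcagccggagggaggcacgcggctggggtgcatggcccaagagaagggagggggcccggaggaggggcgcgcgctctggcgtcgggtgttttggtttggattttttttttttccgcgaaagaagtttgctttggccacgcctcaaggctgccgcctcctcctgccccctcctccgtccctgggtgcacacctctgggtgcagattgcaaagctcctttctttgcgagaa

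The tissues were then compared for each gene. How the 2 tables were scaled to each other is not stated, so each library was rescaled to the same sum over the symbols common to both. A gene was called higher in a tissue when the ranges of the tissues were separate and the means of log2(value + 1) differed by at least 1, a 2-fold change. Differences are given as hippocampus minus hypothalamus on this scale with their SE. Tissue and table cannot be told apart, no test was made across the tables, and 4 libraries against 3 could not give an exact two-sided p below 0.0571. In bulk tissue, fewer cells of a type and less RNA per cell cannot be told apart either.

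By this rule Cry2 and Clock were higher in hippocampus, 2 of 10 genes against 14.5% of all 10736 symbols compared, and Per3 was higher in hypothalamus, 1 of 10 against 13.4%. Either call was made for 3 of 10 genes and for 27.9% of all symbols. The libraries of the tissues did not overlap for 7 of the 10 genes, where the share over all symbols was 52.6%. Hippocampus lay above for 5 (28.2% of all symbols) and hypothalamus for 2 (24.4%). The median difference of the 10 genes was 0.47, and that of all symbols was 0.05. The number of called clock genes was thus near the background, and the genes are described singly.

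The activators were both above in hippocampus. Clock, which encodes a partner of the activating pair with histone acetyltransferase activity, read 3.10, 3.99, 3.85 and 2.95 FPKM in hippocampus replicates 1 to 4 and 2.02, 2.12 and 1.42 FPKM in hypothalamus replicates 1 to 3. Every hippocampus library was above every hypothalamus library, and the difference was 1.05 ± 0.19 (SE). It fell just short of 2-fold without hippocampus replicate 2 or 3 (0.99 each) and more so without hypothalamus replicate 3 (0.88). Arntl read 10.6, 11.9, 9.28 and 9.32 FPKM in hippocampus and 8.15, 7.77 and 7.46 FPKM in hypothalamus. Its libraries did not overlap either, and its difference of 0.66 ± 0.09 (SE) was below 2-fold. Non-coding genes overlap Clock, Per2 and Cry2 on the opposite strand in the reference, a protein-coding gene without a name (LOC120093541) overlaps Cry1, and the sources used here do not say whether fragments were assigned by strand.

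The Period genes, whose proteins accumulate slowly and carry the CRY proteins into the inhibitory complex, went different ways. Per3 read 5.01, 4.95, 4.97 and 6.87 FPKM in hippocampus and 13.5, 16.7 and 14.7 FPKM in hypothalamus. The lowest hypothalamus library was above the highest hippocampus library, and the difference was -1.12 ± 0.14 (SE). Per2 read 8.49, 6.35, 7.13 and 8.07 FPKM in hippocampus and 5.44, 6.81 and 7.49 FPKM in hypothalamus, where the deposited values overlap. After rescaling, its hippocampus libraries lay above with a difference of 0.47 ± 0.15 (SE), or of 0.29 without replicate 1 of both tissues. Per1, which responds to light and to neuronal activity in clock tissue, read 17.3, 12.1, 12.7 and 8.42 FPKM in hippocampus and 7.78, 13.3 and 11.9 FPKM in hypothalamus. Per1 overlapped between the tissues, at 0.47 ± 0.31 (SE). This was 0.30 without hippocampus replicate 1, 0.27 without hypothalamus replicate 1 and 0.10 without both.

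The Cryptochrome genes, which encode the part of the inhibitor that blocks the activators directly, went in opposite directions. Cry2 read 39.4, 43.6, 42.1 and 50.7 FPKM in hippocampus and 19.9, 27.6 and 28.2 FPKM in hypothalamus. All hippocampus libraries were above, by 1.10 ± 0.16 (SE), or by 0.95 without hypothalamus replicate 1. A further Cry2 locus in hypothalamus read 2.20 to 2.85 FPKM, and with loci summed the difference was 0.92. Cry1 read 3.88, 3.52, 3.76 and 4.09 FPKM in hippocampus and 9.10, 7.67 and 7.27 FPKM in hypothalamus. All hypothalamus libraries were above, at -0.72 ± 0.12 (SE) after rescaling.

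Of the REV-ERB genes, Nr1d2 was above in hippocampus, and Nr1d1 overlapped between the tissues. Nr1d1 read 35.7, 21.3, 24.5 and 19.4 FPKM in hippocampus and 33.2, 63.3 and 67.4 FPKM in hypothalamus. Replicate 1 was the highest library in hippocampus and the lowest in hypothalamus, so that the tissues overlapped at -0.78 ± 0.37 (SE). Without replicate 1 of both tissues, all hypothalamus libraries were above and the difference was -1.27 ± 0.11 (SE). Leaving out replicate 1 of hippocampus alone gave -0.97 and of hypothalamus alone -1.09, both without overlap. Leaving out these extreme libraries could only widen the gap and lower the SE, so the separation is not read as a result. Nr1d1 overlaps Thra, the gene of thyroid hormone receptor alpha, on the opposite strand, and Thra read 220, 221, 175 and 174 FPKM in hippocampus and 111, 108 and 143 FPKM in hypothalamus. Thra was thus above in hippocampus, where Nr1d1 was lower in the mean.

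Nr1d2 read 24.0, 21.4, 24.4 and 27.3 FPKM in hippocampus and 20.3, 18.7 and 17.6 FPKM in hypothalamus, a difference of 0.65 ± 0.11 (SE) with no overlap. A further hippocampal Nr1d2 locus read 3.40, 16.0, 13.0 and 21.3 FPKM, low in replicate 1. With loci summed the difference became 1.22, past 2-fold, so the size for Nr1d2 depends on which loci are counted.

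The output gene Dbp read 141, 69.1, 84.4 and 56.3 FPKM in hippocampus and 68.5, 117 and 125 FPKM in hypothalamus. The libraries overlapped and the difference was 0.02 ± 0.39 (SE). As with Nr1d1, replicate 1 was highest in hippocampus and lowest in hypothalamus. Without replicate 1 of both tissues, the hypothalamus libraries were above, at -0.50 ± 0.18 (SE). Leaving out these extreme libraries could only move the difference toward hypothalamus, so no tissue difference is read from it.

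Another scaling shifts all genes together. With FPKM as deposited, the median difference of all symbols went from 0.05 to -0.21, and the split of called symbols went from 1560 higher in hippocampus and 1439 in hypothalamus to 928 and 1819. Over 5 scalings, the direction held for 9 of the 10 genes, and Dbp ran from -0.28 to 0.13. Clock ran from 0.65 to 1.18 and Cry2 from 0.79 to 1.21, so that both fell short of 2-fold in FPKM as deposited and with upper-quartile scaling, and Clock with median-of-ratios scaling too. Per3 ran from -1.31 to -1.02 and was called in each of the 5. With a pseudocount of 5, which shrinks differences of low genes, Per3 fell short of 2-fold at -0.96 and Clock was at 0.68. The separation of libraries held in each for every gene named as separate except Per2, which overlapped in 3 of the 5.

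**Figure D2:**
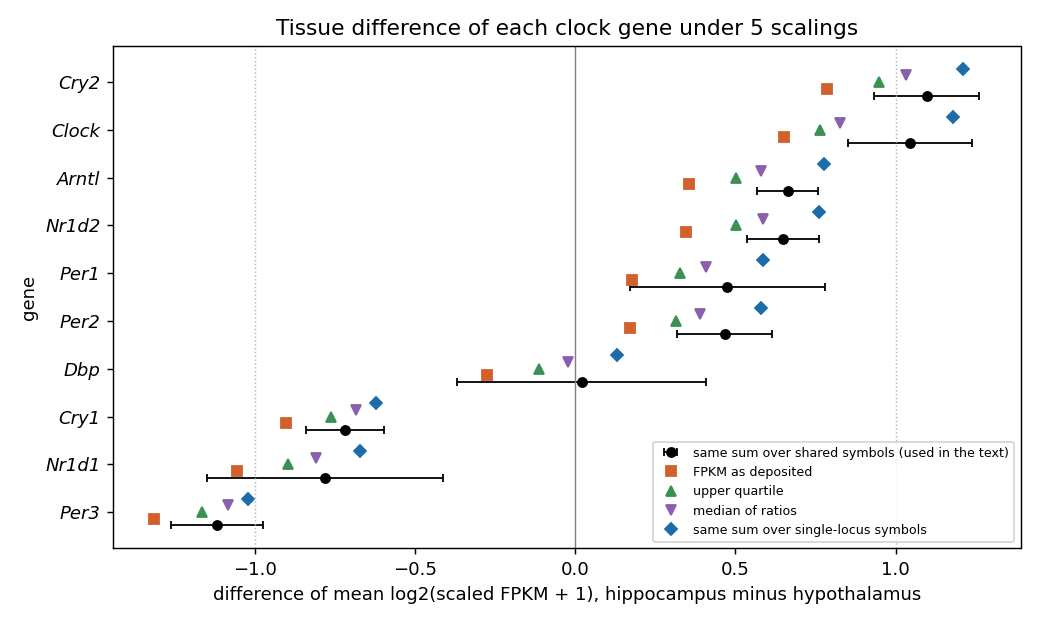
Difference of mean log2(scaled FPKM + 1) between 4 hippocampus and 3 hypothalamus libraries for each clock gene, with symbols for 5 scalings and bars of 1 SE for the scaling used in the text. Dotted lines mark 2-fold. Cry2 and Clock are farthest to the hippocampus side, at 1.10 and 1.05, Per3 is farthest to the hypothalamus side, at -1.12, and Dbp lies across zero.

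A ratio of a pair of genes within a library does not depend on the scale of its table, and 8 such ratios were compared. It can still depend on how each table divides genes into loci. Cry2 had a further locus only in hypothalamus, and Nr1d2 and Npas2 had one only in hippocampus. For 5 of them the libraries of the tissues did not overlap, 1 above in hippocampus and 4 above in hypothalamus. The 8 ratios share genes and no share over other gene pairs was computed, so nothing is read from this number and each ratio is described for itself. Cry1 stood at 0.0983, 0.0806, 0.0894 and 0.0807 times Cry2 in hippocampus and at 0.457, 0.278 and 0.258 times Cry2 in hypothalamus. Cry2 was thus in excess in all 7 libraries, and the excess was smaller in every hypothalamus library, by -1.88 ± 0.27 (SE) in log2. With loci summed this was -1.74, and without replicate 1 of both tissues it was -1.68.

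The ratio of Per2 to Per3 reversed between the tissues. Per2 was 1.69, 1.28, 1.43 and 1.17 times Per3 in hippocampus and 0.403, 0.408 and 0.509 times Per3 in hypothalamus. The difference in log2 was 1.66 ± 0.16 (SE). The ratio of Per1 to Per2 showed no such gap, with 1.04 to 2.04 in hippocampus and 1.43 to 1.95 in hypothalamus, a difference of 0.00 ± 0.26 (SE).

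Nr1d1 to Nr1d2 read 1.49, 0.996, 1.01 and 0.709 in hippocampus and 1.63, 3.39 and 3.82 in hypothalamus. The lowest hypothalamus library, replicate 1, was close to the highest hippocampus library, which was also replicate 1. The difference of -1.45 ± 0.44 (SE) became -2.01 without replicate 1 of both tissues and -2.06 with loci summed. Nr1d1 to Arntl, the repressor over its target, read 1.79 to 3.36 in hippocampus and 4.07 to 9.04 in hypothalamus, a difference of -1.48 ± 0.41 (SE).

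Arntl to Clock was 2.41 to 3.43 in hippocampus and 3.67 to 5.26 in hypothalamus, so that Arntl exceeded its partner in all 7 libraries and by more in hypothalamus. The difference was -0.52 ± 0.19 (SE). Dbp to Arntl overlapped, at 5.81 to 13.3 in hippocampus and 8.41 to 16.7 in hypothalamus, a difference of -0.67 ± 0.42 (SE). It separated, with hypothalamus above, without hypothalamus replicate 1 (-0.98) and without replicate 1 of both tissues (-1.22). Replicate 1 was highest in hippocampus and lowest in hypothalamus, so leaving it out could only move the difference that way. Npas2, a relative of Clock that can take its place as the partner of BMAL1 in forebrain, read 2.53 to 5.75 times Clock in hippocampus and 2.10 to 4.44 times in hypothalamus. Npas2 was therefore above Clock in all 7 libraries, and its ratio to Clock overlapped between the tissues. The difference of 0.32 ± 0.43 (SE) turned with the processing. Without hypothalamus replicate 3 the ratio separated, with hippocampus above by 0.65. With Npas2 loci summed it was 1.04, and without hippocampus replicate 1, where another Npas2 locus is used, it was -0.26 and Npas2 was below Clock in a library.

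**Figure D3:**
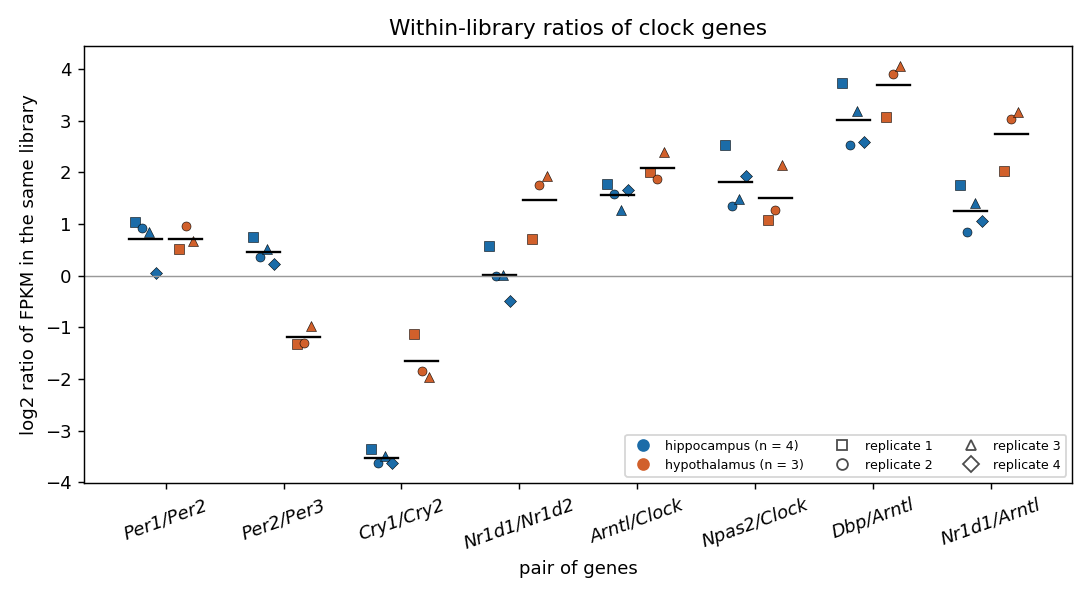
Log2 ratio of FPKM of 2 genes in the same library for 8 pairs, in 4 hippocampus and 3 hypothalamus libraries, with points for libraries (shape for replicate number) and lines for means. The tissues are separate for Per2/Per3, Cry1/Cry2, Nr1d1/Nr1d2, Arntl/Clock and Nr1d1/Arntl, and Cry1/Cry2 is below zero in all 7 libraries.

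Libraries of a tissue were compared next. The median SD of log2(FPKM + 1) over the 10 genes was 0.167 in hippocampus and 0.203 in hypothalamus, beside 0.227 and 0.246 over all symbols of at least 1 FPKM. Dbp in hippocampus stood at percentile 93.9 of the SDs of all symbols and Nr1d1 in hypothalamus at percentile 91.5. In both tissues the 3 genes with the largest SD were Dbp, Nr1d1 and Per1, with 0.562, 0.372 and 0.394 in hippocampus and 0.470, 0.554 and 0.370 in hypothalamus. The highest library exceeded the lowest by 2.51 times for Dbp, 2.06 times for Per1 and 1.84 times for Nr1d1 in hippocampus. In hypothalamus these were 1.82, 1.71 and 2.03 times.

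These SDs depend on replicate 1, which was the highest library in hippocampus and the lowest in hypothalamus for Dbp, Per1 and Nr1d1. Leaving out an extreme library tends to lower an SD, so the fall itself shows little. Without replicate 1, none of the 10 genes was above the 90th percentile of all symbols in either tissue. In hippocampus the SDs of Dbp, Per1 and Nr1d1 were then 0.287, 0.296 and 0.163, and that of Per3 was 0.232. In the 2 hypothalamus libraries left, they were 0.0632, 0.101 and 0.0633, and Clock had the largest, 0.259. The median over the 10 genes was then 0.177 in hippocampus and 0.0633 in hypothalamus.

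The other members were steadier. Cry1 had the smallest SD in hippocampus, 0.0724, which placed it at percentile 4.63 of all symbols, and Arntl the smallest in hypothalamus, 0.0565, at percentile 4.29. Nr1d2 had an SD of 0.139 in hippocampus and 0.0976 in hypothalamus, against 0.372 and 0.554 for Nr1d1, which encodes the same kind of receptor. The Nr1d2 values are those of the locus of highest mean. A further hippocampal Nr1d2 locus ran from 3.40 to 21.3 FPKM, so the SD there depends on which loci are counted. Without replicate 1 the SDs were 0.170 and 0.0543 for Nr1d2 and 0.163 and 0.0633 for Nr1d1. The hypothalamus values then rest on a pair of libraries, and replicate 1 was an extreme library for Nr1d1. These SDs do not show whether the genes differ in spread.

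Dbp, Nr1d1 and Per1 moved in parallel. All 3 were highest in replicate 1 and lowest in replicate 4 of hippocampus, and all 3 were lowest in replicate 1 of hypothalamus. Relative to the mean of the other libraries, replicate 1 was 1.02, 0.70 and 0.62 higher in log2 for Dbp, Nr1d1 and Per1 in hippocampus and lay at -0.81, -0.96 and -0.63 in hypothalamus. Per2 went the same way with smaller steps of 0.22 and -0.34. Arntl, which is repressed by Nr1d1, did not mirror them, with 0.06 and 0.09. Cry2 was lowest in replicate 1 of both tissues, at -0.20 and -0.47.

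This pattern was noticed after the values were seen, and it is not limited to clock genes. Replicate 1 was the highest library in hippocampus and the lowest in hypothalamus for 4 of 10 clock genes and for 15.9% of 9741 symbols with at least 1 FPKM in both tissues. With a distance of at least 0.5 from the mean of the other libraries in both tissues, it held for 3 of 10 clock genes and for 2.78% of these symbols, which is 271 symbols. Activity-induced immediate early genes showed it as well. All 7 that reached 1 FPKM in both tissues (Arc, Dusp1, Egr1, Fos, Ier2, Junb and Nr4a1) had it, and 4 of them by at least 0.5. In hippocampus, Junb read 37.1 FPKM in replicate 1 against 12.6 to 13.5 FPKM in the rest, and Egr1 47.3 FPKM against 19.4 to 26.9 FPKM. Of 17 further clock genes, 3 (Csnk1e, Npas2 and Usp2) had it and none by at least 0.5. Of 6 glucocorticoid-responsive genes (Fkbp5, Tsc22d3, Sgk1, Zbtb16, Klf9 and Pdk4), 0 had it, a count too small to set apart from the 15.9% of all symbols. The summed immediate early level (9 genes found of 10 listed) was 222 FPKM in hippocampus replicate 1 against 105 to 137 FPKM in the rest, and 69.0 FPKM in hypothalamus replicate 1 against 105 and 103 FPKM. Replicate 1 also differed in other ways. In values under 0.1 FPKM, pairs of libraries with replicate 1 had a common ratio at no more than 3.66% of loci. Other pairs of a tissue had one at 19.5% to 25.0%. Further loci of Csnk1d and Npas2 in hippocampus and of Klf9 in hypothalamus were lowest in replicate 1, at 0, 0.0694 and 0 FPKM. The part of these differences, and of the immediate early level, in the levels of Per1, Dbp and Nr1d1 was not tested.

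**Figure D4:**
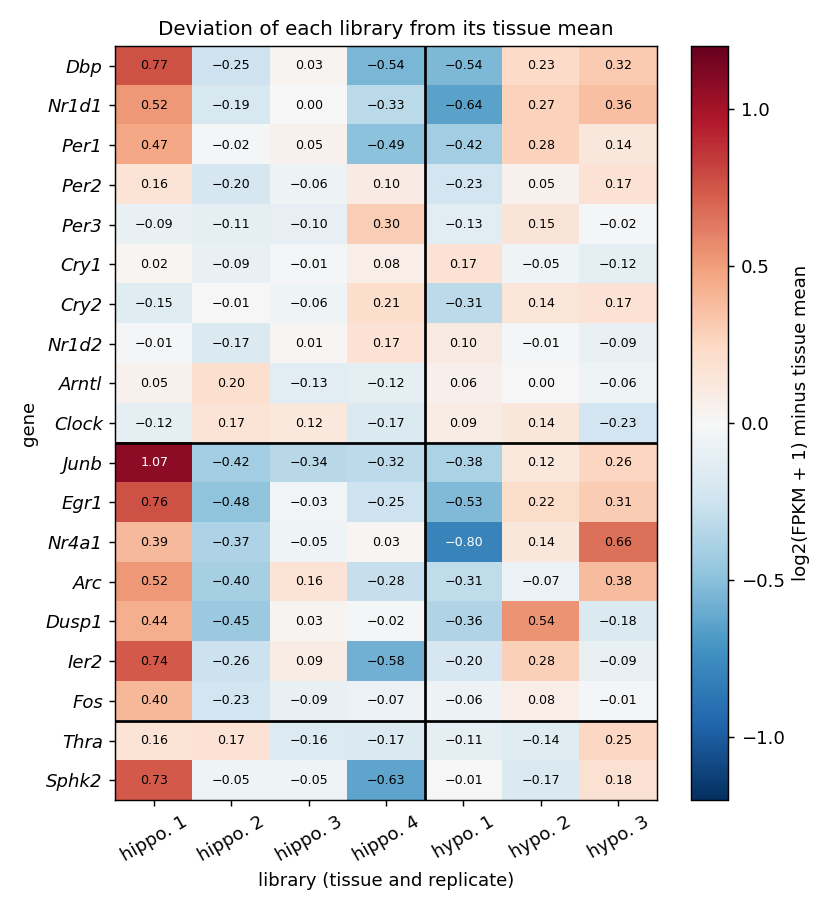
Log2(FPKM + 1) of each library minus the mean of its tissue for the 10 clock genes (top), 7 immediate early genes (middle) and the neighbouring genes Thra and Sphk2 (bottom), with red above and blue below the mean. Dbp, Nr1d1 and Per1 are red in hippocampus replicate 1 (0.77, 0.52 and 0.47) and blue in hypothalamus replicate 1 (-0.54, -0.64 and -0.42), as are the immediate early genes, while Arntl and Clock stay within 0.23 of the mean.

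Sphk2, which encodes a sphingosine kinase and lies next to Dbp on the opposite strand, read 17.5, 9.73, 9.78 and 6.20 FPKM in hippocampus and 10.1, 8.93 and 11.7 FPKM in hypothalamus. It followed Dbp in hippocampus, highest in replicate 1 and lowest in replicate 4, and not in hypothalamus, where replicate 1 was not its lowest library.

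Genes with the pattern most like that of Dbp were sought among 5671 other symbols with a single locus in each table and at least 5 FPKM in both tissues. Likeness was the sum over the 7 libraries of absolute differences in log2(FPKM + 1) after centring each tissue. The nearest were Paqr6, Ercc1, Mrps12, Ssh3 and Col11a2, at 0.49 to 0.61, where the median of all was 2.90. Nr1d1 was at rank 20 (0.75), Per1 at rank 60 (0.95), Per2 at rank 1123 (2.01), Per3 at rank 2611 (2.79) and Arntl at rank 2924 (2.95). None of the nearest 5 is a clock gene.

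Further genes of the clock were taken from a list of 25, of which 19 were found in both tables and 17 reached 1 FPKM. The others on the list, Bhlhe41 and Hlf among them, were not analysed here. Of the 17, 4 were called higher in hippocampus (14.5% of all symbols) and 1 in hypothalamus (13.4%), 9 lay above in hippocampus (28.2% of all symbols) and 1 in hypothalamus (24.4%) without overlap, and 7 overlapped. Their median difference was 0.45.

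Tef, which encodes a D-box factor of the same family as DBP, read 88.6, 98.4, 87.2 and 90.9 FPKM in hippocampus and 39.6, 41.8 and 42.9 FPKM in hypothalamus. The libraries were far apart and close within each tissue, and Tef was higher in hippocampus by 1.43 ± 0.03 (SE) and was called in each of the 5 scalings. Ciart, an inhibitor of the CLOCK and BMAL1 pair that the tables list under an older name (RGD1566380), read 5.23, 2.69, 4.18 and 3.08 FPKM in hippocampus and 12.3, 13.0 and 12.02 FPKM in hypothalamus. It was higher in hypothalamus in each of the 5 scalings, at -1.38 ± 0.21 (SE).

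Npas2 read 17.8, 10.1, 10.8 and 11.2 FPKM in hippocampus and 4.25, 5.11 and 6.30 FPKM in hypothalamus, a difference of 1.46 ± 0.23 (SE) that was called in each scaling. A further hippocampal Npas2 locus read 0.0694, 11.5, 2.75 and 18.9 FPKM, so that replicate 1 was highest at one locus and lowest at the other. Without hippocampus replicate 1 that further locus has the higher mean and is the one used, and Npas2 then overlapped between the tissues at 0.96. With loci summed it was at 2.12. Gsk3b, a kinase that acts on several clock proteins, differed by 1.05 ± 0.21 (SE). Usp2, a rhythmic deubiquitinase, differed by 1.06 ± 0.09 (SE). Both were above in hippocampus in each of the 5 scalings and passed 2-fold in 2 of them. Gsk3b fell short of 2-fold without hippocampus replicate 4 (0.93) or hypothalamus replicate 1 (0.89). Without replicate 1 of both tissues, Gsk3b (0.96) and Usp2 (0.98) both fell short.

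The nuclear receptor genes Rora and Rorb, which encode activators at the sites that REV-ERB proteins occupy, were not called. Rora read 2.18 to 3.50 FPKM in hippocampus and 1.22 to 2.51 FPKM in hypothalamus, and Rorb read 4.34 to 5.90 and 6.52 to 8.48 FPKM. Bhlhe40, a repressor at E-boxes, read 25.8 to 29.4 FPKM in hippocampus and 22.2 to 29.3 FPKM in hypothalamus. The casein kinase genes, whose products phosphorylate PER proteins, were not called either. Csnk1e read 22.4 to 35.1 FPKM in hippocampus and 21.2 to 29.4 FPKM in hypothalamus, and Csnk1d read 41.8 to 71.3 and 40.1 to 46.5 FPKM. A further hippocampal locus of Csnk1d was listed at 0 in replicate 1 and read 29.9 to 41.0 FPKM in the others, and with loci summed Csnk1d differed by 1.13.

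Genes that mark the suprachiasmatic nucleus were examined because the hypothalamic dissection could hold that nucleus. Of 8 listed, 7 were found, and 4 were called higher in hypothalamus (Avp, Lhx1, Six3 and Six6), where the share over all symbols was 13.4%. Lhx1, a transcription factor of that nucleus, read 36.3, 54.2 and 33.4 FPKM in hypothalamus and at most 0.132 FPKM in hippocampus. Vip, a peptide of its core that cortical interneurons also make, read 4.99, 9.71 and 5.02 FPKM in hypothalamus and 8.55 to 9.42 FPKM in hippocampus. After rescaling Vip was above in hippocampus without overlap, at 0.79, and Prok2 (0.04) and Rgs16 (-0.46) overlapped. The 4 called genes are also expressed elsewhere in the hypothalamus, so these levels do not measure the share of the nucleus in the dissection. Pineal genes were low, with a summed level of at most 2.70 FPKM over 4 genes in any library.

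Markers of other cell types differed between the tissues beside the clock genes. In FPKM as deposited, the summed level of 5 astrocyte genes was 603 to 747 in hippocampus and 940 to 1322 in hypothalamus, with 2 of 5 (Aqp4 and Aldh1l1) called higher in hypothalamus, against 13.4% of all symbols. The other astrocyte genes overlapped, Gfap at -0.29, Slc1a3 at -0.40 and Gja1 at 0.40. Of 3 endothelial genes, 2 (Cldn5 and Flt1) were called higher in hippocampus, against 14.5% of all symbols, and the summed level of the 3 was 77.9 to 125 FPKM there and 47.5 to 69.1 FPKM in hypothalamus. The remaining one, Pecam1, overlapped at -0.16. None of 5 oligodendrocyte and none of 4 microglia genes was called. Their summed levels in FPKM as deposited were separate, with 3258 to 4196 FPKM in hippocampus and 4829 to 6391 FPKM in hypothalamus for oligodendrocytes. For microglia these were 76.4 to 98.3 and 103 to 114 FPKM. After rescaling, the summed levels of the tissues overlapped for astrocytes, oligodendrocytes and microglia, and those of endothelium remained separate. Single genes went both ways, with Mbp, Csf1r and P2ry12 above in hypothalamus and Mog and Cx3cr1 above in hippocampus. The part of cell composition in the differences of Per3, Cry1, Cry2 and Clock was not tested.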

How the data were processed

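Poly-A RNA of each tissue was sequenced, per the labels' protocols, on an Illumina HiSeq 2000. The authors deposited FPKM values, with a separate table for each tissue. The submitters' processing notes name TopHat, Bowtie, TopHat2, Bowtie2, Cufflinks and Cuffdiff and the build rn5, without roles. The annotation, the strand setting and the scaling between tables are not given in the sources used here. FPKM carry no counts, so depth is unknown and counting error has no interval here. Low values (under 0.1 FPKM) of library pairs without replicate 1 shared a common step at 19.5% to 25.0% of loci, and pairs with replicate 1 at no more than 3.66%.

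Loci whose status word was not OK throughout were dropped (86 in the hippocampus table, 24 in the hypothalamus table). A symbol took its locus of highest mean, and symbols were joined across tables by name. Further genes were also matched by RefSeq synonyms (GRCr8). For tissue differences FPKM of each library were multiplied to total 1000000 over common symbols, and log2(value + 1) was used. Values within a tissue and ratios used FPKM as deposited. No p-value was computed, since the scale between the tables is not stated.

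The 10 genes, the lists and the rules were chosen with earlier results of these data known. Named genes were the 10, those of the clock list that were called plus 10 listed in any case (Bhlhe41 and Hlf among them), the 5 nearest Dbp, the gene overlapping a member and counts of marker lists. Sphk2, Junb, Egr1, single marker genes and the SDs without replicate 1 were added after their values were seen. Alternatives were other pseudocounts (0.1 and 5), scalings, minimum means, loci summed, single-locus symbols, no status filter and replicates left out. Python 3.11.15, pandas 2.3.3, numpy 2.4.6 and matplotlib 3.10.9 were used.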

Additional observations from a re-analysis of the deposited data

Results flagged for a closer look

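In 49 results measured in the 4 hippocampus libraries (levels of clock genes, ratios and list levels), 2 had a library far from the others by Dixon's ratio (gap at the end of the range over the range itself), above its critical value for 4 libraries. Chance flags about 1 in 20, or 2.45 of 49. Per3 was highest in replicate 4, with a ratio of 0.968, because the other 3 libraries lay between 4.95 and 5.01 FPKM and replicate 4 read 6.87 FPKM. Without that library the Per3 difference between tissues was -1.23. Npas2 was highest in replicate 1, with a ratio of 0.856, at 17.8 FPKM against 10.1 to 11.2 FPKM. In that library its further locus read 0.0694 FPKM.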

How the results depend on the processing

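The numbers of called genes are small and moved with the settings. Clock genes higher in hippocampus numbered 2, but 1 with a pseudocount of 5, with median-of-ratios scaling, with a minimum mean of 5 FPKM (which leaves out Clock), among symbols with 1 locus in each table (which leaves out Cry2) and without replicate 1 of both tissues, and 0 with FPKM as deposited and with upper-quartile scaling. With 1 replicate left out at a time this number ranged from 1 to 2: Clock fell short without hippocampus replicate 2 or 3 or hypothalamus replicate 3, and Cry2 without hypothalamus replicate 1. Clock genes higher in hypothalamus numbered 1, but 0 with a pseudocount of 5 and 2, with Nr1d1, without replicate 1 of both tissues. With 1 replicate left out the range was 1 to 2, with 2 reached without hypothalamus replicate 1, where Nr1d1 was at -1.09. Further clock genes higher in hippocampus numbered 4, but 2 with a pseudocount of 5, FPKM as deposited, upper-quartile and median-of-ratios scaling. All symbols higher in hippocampus numbered 1560, but 928 with FPKM as deposited. Of 267 recomputed differences of genes and ratios over 19 alternatives, 11 moved by more than 1 SD and none that was called, or separate for a ratio, changed sign. The causes were not tested. The scaling over symbols with 1 locus was added after seeing the data. No paired analysis was possible because the labels do not say whether libraries with the same number came from 1 rat, and the results come from no test to which a block could be added. Depth sets no known limit, since FPKM carry no counts.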
